A study of Rattus norvegicus with 6 samples.

Results

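Spliced intergenic assembled transcripts are transcript models that StringTie built from the reads of these rat lungs, that overlap no annotated transcript and that hold at least 2 exons. They were taken from the deposited transcript table by its class code u, by an exon number of 2 or more and by a length above 200 bases, without use of their levels. A model could be built only where these libraries gave reads. The rule gave 2565 transcripts of the 70376 in the table, or of the 10494 intergenic ones, among which 7905 of the same length range had a single exon. They lay at 1843 loci on 22 chromosomes, and 378 of these loci held 2 or more of them. Comparisons were made between 3 Control and 3 Model libraries of total RNA from lung specimens, depleted of ribosomal RNA. Both groups were Sprague-Dawley rats aged 7 weeks at the start. The Model rats had received 1 intratracheal instillation of bleomycin at 7 mg/kg and the Control rats saline of equal volume, and lungs were collected after 28 days. Each library is labelled as its own sample, and nothing in the labels says which lung lobe was taken or whether animals were pooled, so p-values measure the spread between these libraries. In such bulk tissue, fewer cells of a type and less RNA per cell cannot be told apart.

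The libraries held RNAs of the distal lung, but markers of the same cell type differed in level. Sftpc, a surfactant protein of type 2 cells, ranged from 2410 to 4146 FPKM (fragments per kilobase of transcript, scaled to library size). Scgb1a1 of club cells ranged from 4050 to 7677 and Ager of type 1 cells from 240 to 359. Sftpb of type 2 cells (460 to 546) and Aqp5 of type 1 cells (82.3 to 115) were also high. By contrast, Sftpa1 of type 2 cells ran from 3.19 to 70.5, and Hopx of type 1 cells from 4.30 to 8.51. Col1a2 of fibroblasts was at most 0.770 and Dcn 2.96 to 6.99, while Col1a1 ranged from 60.2 to 84.9 and Col3a1 from 154 to 233. Of smooth muscle, Acta2 ranged from 47.3 to 88.5, Myh11 from 2.05 to 5.23 and Tagln from 0.612 to 4.89. The leukocyte markers Ptprc and Cd68 ranged from 1.62 to 6.10 and from 1.21 to 22.8. No transcript analysed here bore the name of the leukocyte marker Marco. Transcripts of heart muscle stood out in Model replicate 3, where Myh6 was at 5.11 and Tnnt2 at 2.35 FPKM, against at most 0.0339 and 0.453 in the other 5 libraries. The same library had the lowest median level of the spliced intergenic transcripts. Total read numbers were not used here, and the deposited per-base coverage, with a library median between 9.58 and 12.6 over these transcripts, is the measure of depth used here.

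Long non-coding RNAs are transcribed by RNA polymerase II, and many are spliced and polyadenylated like messenger RNAs while encoding no protein. Those between genes can act on neighbouring genes through their transcription or their DNA elements, and others act in trans as scaffolds or as ligands of proteins and microRNAs. An intergenic transcript model can also be an unannotated protein-coding gene, a distant exon of a known gene or a transcript that starts on the opposite strand of a gene's promoter, and class code u does not tell these apart. For 260 of the 2565 (10.1%) the assembled locus also held an annotated transcript, and whether they are part of that gene was not tested. Coding potential was not assessed here.

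Primers had been designed for 3 loci that hold such transcripts, all within 200 kb of an annotated gene of 5.8S ribosomal RNA (rRNA). They are shown because the most abundant members of the whole set lay at such loci. Which transcript of a locus each pair amplifies was not determined.
MSTRG.11559 forward primer: ctccagaggtcctgagttt
MSTRG.11559 reverse primer: cttcagacacaccagaagaag
MSTRG.11560 forward primer: ctctcgtactgagcaggatta
MSTRG.11560 reverse primer: gaacgtgagctgggtttag
MSTRG.30244 forward primer: ttagaggcgttcagtcataatc
MSTRG.30244 reverse primer: ccgcaggttcagacattt

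A second group started close to the start of an annotated gene on the opposite strand. For 73 of the 2565 transcripts the 5′ ends were at most 250 bases apart, in a head-to-head arrangement. Both directions can share 1 promoter region in such an arrangement, and whether they do here was not tested. The promoters of the partner genes of the 4 most abundant of these with a RefSeq entry follow. Each runs from 250 bases before to 50 bases after the RefSeq start (build GRCr8, coordinates and strand of that build), written 5′ to 3′ along the annotated gene. Capitals mark matches, on either strand, of the GC box GGGCGG, the CCAAT box CCAAT and the TATA box TATAAA. A GC box and a CCAAT box that adjoin can share letters.
Igf2r, chr1:50526628-50526927 (+ strand): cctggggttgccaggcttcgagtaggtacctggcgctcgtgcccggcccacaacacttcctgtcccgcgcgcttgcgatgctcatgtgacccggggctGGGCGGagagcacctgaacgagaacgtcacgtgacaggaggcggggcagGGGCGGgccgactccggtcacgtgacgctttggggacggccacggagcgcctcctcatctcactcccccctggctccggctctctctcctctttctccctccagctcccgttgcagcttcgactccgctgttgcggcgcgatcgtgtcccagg
Klhl24, chr11:94382001-94382300 (- strand): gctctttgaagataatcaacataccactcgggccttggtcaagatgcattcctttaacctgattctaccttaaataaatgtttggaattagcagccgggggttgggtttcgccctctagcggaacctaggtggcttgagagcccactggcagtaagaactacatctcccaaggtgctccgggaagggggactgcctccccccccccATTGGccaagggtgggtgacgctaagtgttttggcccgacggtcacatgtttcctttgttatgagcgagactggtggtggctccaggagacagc
Mgat2, chr6:93392166-93392465 (+ strand): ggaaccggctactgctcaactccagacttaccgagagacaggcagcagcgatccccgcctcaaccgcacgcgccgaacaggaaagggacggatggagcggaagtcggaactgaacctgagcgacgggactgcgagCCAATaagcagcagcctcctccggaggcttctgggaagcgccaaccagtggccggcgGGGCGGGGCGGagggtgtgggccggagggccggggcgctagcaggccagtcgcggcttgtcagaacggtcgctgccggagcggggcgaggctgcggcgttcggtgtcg
Erg28, chr6:111214019-111214318 (- strand): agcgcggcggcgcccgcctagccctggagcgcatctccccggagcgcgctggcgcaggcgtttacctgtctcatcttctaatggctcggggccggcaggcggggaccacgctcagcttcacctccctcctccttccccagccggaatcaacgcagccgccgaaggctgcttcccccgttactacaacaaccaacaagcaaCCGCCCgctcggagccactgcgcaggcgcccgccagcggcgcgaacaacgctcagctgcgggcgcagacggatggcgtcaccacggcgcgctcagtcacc
Of all 33469 RefSeq promoters of this length, 33.1% held a GC box, 37.5% a CCAAT box and 14.2% a TATA box by the same search. The Igf2r window had 68.0% G and C with 30 CG dinucleotides and 2 GC boxes, and the Mgat2 window had 69.0%, 34 and 2. In the Erg28 window there were 37 CG dinucleotides and 1 GC box, while the Klhl24 window, at 53.7% G and C, held 9 and no GC box. The distance between the start in the deposited table and the RefSeq start was not measured, since the builds differ. Only 29 of the 52 partner genes at this distance matched a RefSeq promoter, so a comparison of promoter composition over the set is void.

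The transcripts were long and mostly of 2 exons. Their median length was 2763 bases (range 201 to 80745), against 511 for the single-exon intergenic transcripts. There were 1950 with 2 exons, 468 with 3 or 4, 106 with 5 to 9 and 41 with 10 or more, and the median genomic span was 8778 bases. The mean intron of a transcript had a median of 1831 bases, but 345 transcripts had a mean intron under 100 bases, the shortest being 20. Strand was given for every one of them, 1320 on the plus and 1245 on the minus strand, whereas 6424 of the 7905 single-exon transcripts had none. At the lower bound of length, 13 were shorter than 210 bases, and no intergenic transcript of 200 bases or fewer had 2 exons. Examples just inside the bound, MSTRG.19675.1, MSTRG.6718.1 and MSTRG.33115.2 (201, 201 and 202 bases), had mean levels of 1.26, 1.06 and 2.14 FPKM. MSTRG.22583.6, also at the bound, was at 72.0, 53.2 and 0.109 FPKM in the Control libraries and at most 0.328 in the Model libraries.

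**Figure D1:**
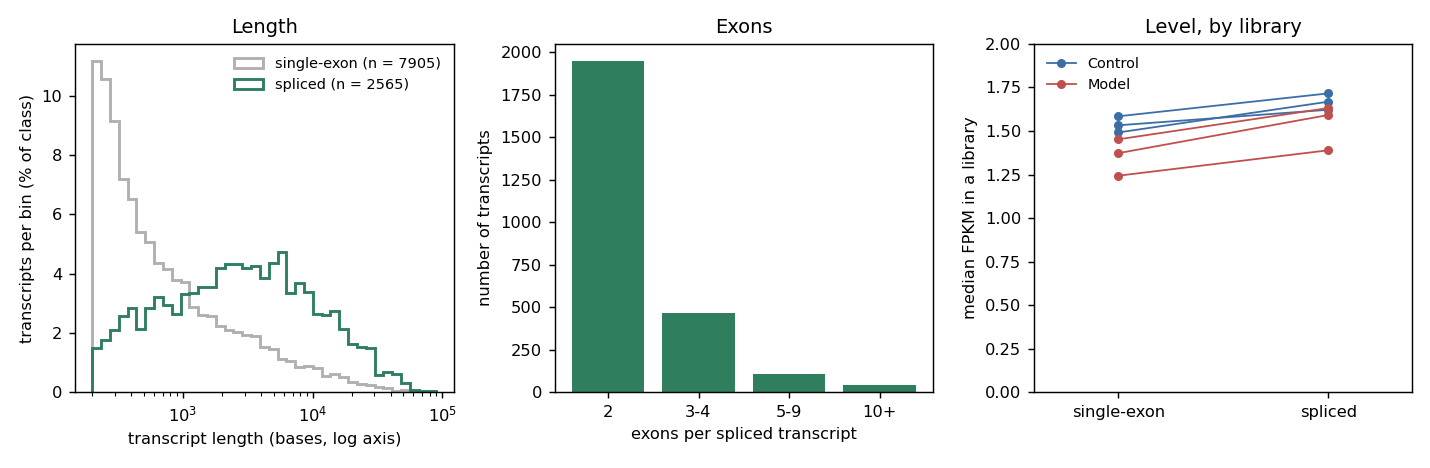
Left, the length of spliced (green, n = 2565) and single-exon (grey, n = 7905) intergenic transcripts on a log axis, as the percent of each class per bin. Middle, the number of spliced transcripts in each exon class. Right, the median FPKM of both classes joined within each of the 6 libraries (blue Control, red Model); the spliced median is the higher in all 6, from 1.39 to 1.72 against 1.24 to 1.58.

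Median levels were close to those of the single-exon class and above those of annotated transcripts. Over all annotated transcripts, including those listed at 0, the median was 0.594 to 0.624 FPKM in a library. Annotated transcripts are listed whether or not they are expressed, whereas an assembled model exists only where these libraries gave reads. The comparison with annotated transcripts therefore follows from how the classes were made, and no conclusion is drawn from it. The median FPKM of the spliced transcripts was 1.67, 1.62 and 1.72 in Control replicates 1 to 3 and 1.59, 1.63 and 1.39 in Model replicates 1 to 3, the order kept below. For the single-exon transcripts it was 1.49, 1.53 and 1.58, and 1.37, 1.45 and 1.24. The difference of median log2(FPKM + 1) within a library averaged 0.09 ± 0.03 (SD, 6 libraries) and was positive in 6 of 6, with an exact paired permutation p of 0.031 (two-sided), the smallest that 6 libraries allow. Among transcripts of 1000 to 3000 bases, 696 spliced and 1403 single-exon, the difference was 0.02 ± 0.02 and ranged from -0.02 to 0.05, with an exact paired permutation p of 0.156, which did not pass the test.

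Level was higher in classes with more exons, as a description over transcripts that share their libraries. The median of the mean FPKM was 1.56 for 2 exons, 1.64 for 3 or 4, 2.03 for 5 to 9 and 2.87 for 10 or more. The share at a mean of 1 FPKM or more was 71.6% in the first of these classes and 82.9% in the last. Of all 2565, 1866 had a mean of at least 1 FPKM, 54 of at least 10 and 12 of at least 50, and 84 were under 0.1. A library detected 2255 to 2285 of them above 0. Only 1918 were above 0 in all 6 libraries, and 124 were above 0 in 1 library alone.

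Many of the transcripts with the most exons lay in intervals where RefSeq lists protein-coding genes that no transcript analysed here named. For each transcript, the nearest named genes on either side in the table were looked up in RefSeq (GRCr8, gene order only), and genes between them whose names were absent from the table were counted. Both flanks matched for 2351 transcripts, and a protein-coding gene lay between them for 1081 (46.0%). Among the 36 matched transcripts with 10 or more exons it was 24 (66.7%), against 45.2% of those with 2 exons. An interval can hold several genes and differs in width, and whether a transcript belongs to the gene was not determined.

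MSTRG.23221.1 had 102 exons, the highest number, over 36043 bases at chr3:63606878-63675722 of the deposited coordinates, whose build is not given in the sources used here. It lay between Plekha3 and Ccdc141, where RefSeq lists Ttn, the giant sarcomere protein titin, as the only protein-coding gene. Its level was 3.14, 2.28 and 2.20 FPKM in Control and 2.47, 2.59 and 3.32 in Model. The groups overlapped, and Model replicate 3, the library with heart muscle transcripts, had the highest value by a small margin over Control replicate 1. A second transcript of that interval, MSTRG.23217.1 with 33 exons, was likewise highest there, at 2.40 FPKM, against 1.37 to 1.90 in the other libraries.

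MSTRG.8776.1, with 32 exons between Mafk and Micall2, lay in the interval of Ints1, a subunit of the Integrator complex that cleaves nascent RNA. It was at 6.48, 6.29 and 5.86 FPKM in Control and 6.28, 6.20 and 6.45 in Model, with overlapping groups. MSTRG.29326.1, with 41 exons between Cela3b and Ldlrad2, was the most abundant transcript with 10 or more exons, at 31.6, 27.6 and 21.7 FPKM in Control and 33.4, 28.4 and 35.7 in Model. Neither passed the test between groups, with limma adjusted p-values of 0.989 and 0.945. The longest transcript, MSTRG.6148.1 (80745 bases, 3 exons), lay between Ppm1d and Tbx4 in an interval with Bcas3, at 2.07, 0.871 and 1.45 FPKM in Control and 1.96, 1.06 and 1.84 in Model.

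The loci with the most members were MSTRG.6792 and MSTRG.11434, with 13 each. MSTRG.6792 lay on the minus strand at chr10:94850971-94886338 between Tex2 and Polg2, where RefSeq lists Pecam1, the adhesion molecule CD31 of endothelial cells, and Milr1, a mast cell receptor. Pecam1 was one of the endothelial markers looked for, and no transcript analysed here bore that name. The 13 transcripts had 7 to 10 exons and were 1879 to 2049 bases long. Their summed level was 56.8, 57.9 and 54.7 FPKM in Control and 62.5, 47.4 and 73.7 in Model, so the groups overlapped and Model replicate 3 was the highest. The other endothelial markers, Cdh5 and Kdr, ranged from 11.2 to 24.2 and from 6.43 to 28.7 FPKM, with the highest value in Model replicate 3 for Cdh5 and in Control replicate 2 for Kdr.

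MSTRG.11434, on the plus strand at chr14:43193018-43374881 between Uchl1 and Apbb2, had no RefSeq gene of another name in its interval. The sum over its 13 transcripts was 23.8, 16.8 and 17.8 FPKM in Control and 27.0, 25.1 and 23.6 in Model. Control replicate 1 lay within the Model range. One of the 13, MSTRG.11434.6 with 7 exons, was called higher in Model by the criteria given with the group comparison, at 1.08, 1.04 and 0.994 FPKM against 3.19, 2.59 and 2.45.

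The most abundant transcripts clustered at genes of 5.8S rRNA, a part of the large ribosomal subunit that is cut from the same precursor as the 18S and 28S rRNAs. Only 36 of the 2565 lay within 200 kb of 1 of the 8 annotated 5.8S rRNA genes, a distance set after the values were seen, and they made up 7 of the 10 with the highest mean. MSTRG.201.1 (2 exons, intron of 58 bases, chr1:11903552-11905479), 962 bases from such a gene, was the highest of all at 407, 1896 and 946 FPKM in Control and 266, 3301 and 705 in Model. MSTRG.30246.4 on chromosome 6 was at 695, 725 and 53.9 in Control and 255, 993 and 312 in Model. Model replicate 2 was the highest library for both, and the groups overlapped.

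The levels of these transcripts varied widely between libraries of the same group. MSTRG.11559.15 on chromosome 14 was listed at 0 in 4 libraries, at 680 FPKM in Control replicate 3 and at 208 in Model replicate 3. MSTRG.11559.11, which overlaps it, was above 0 in Control replicate 1 alone, at 91.2 FPKM. All 68 transcripts of that locus together summed to between 4241 and 9978 FPKM in a library. MSTRG.28221.8 on chromosome 5 had 0.721, 8.35 and 254 FPKM in Control and 229, 51.1 and 1.08 in Model. MSTRG.28221.30, 4 bases from a 5.8S rRNA gene, had 0, 67.5 and 0 in Control and 68.0, 3.66 and 278 in Model. The libraries had been depleted of rRNA before sequencing, and the part of leftover rRNA in these values was not tested.

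Among transcripts with a mean of at least 10 FPKM, the coefficient of variation over the 6 libraries had a median of 142% for the 12 near such a gene (41.9% to 245%) and 32.9% for the other 42 (3.04% to 157%). These are values of single transcripts, and several of the 12 are overlapping isoforms of a locus that share reads. Other transcripts of the top 10 lay away from these genes. MSTRG.30311.1, 3 exons tail to tail with the calcium sensor gene Hpcal1, was at 91.2, 105 and 166 FPKM in Control and 72.4, 103 and 80.1 in Model. MSTRG.3740.1, between Ms4a18 and Ms4a8, was at 93.7, 97.9 and 144 in Control and 87.3, 95.0 and 92.7 in Model. In both the groups overlapped and no call was made.

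**Figure D2:**
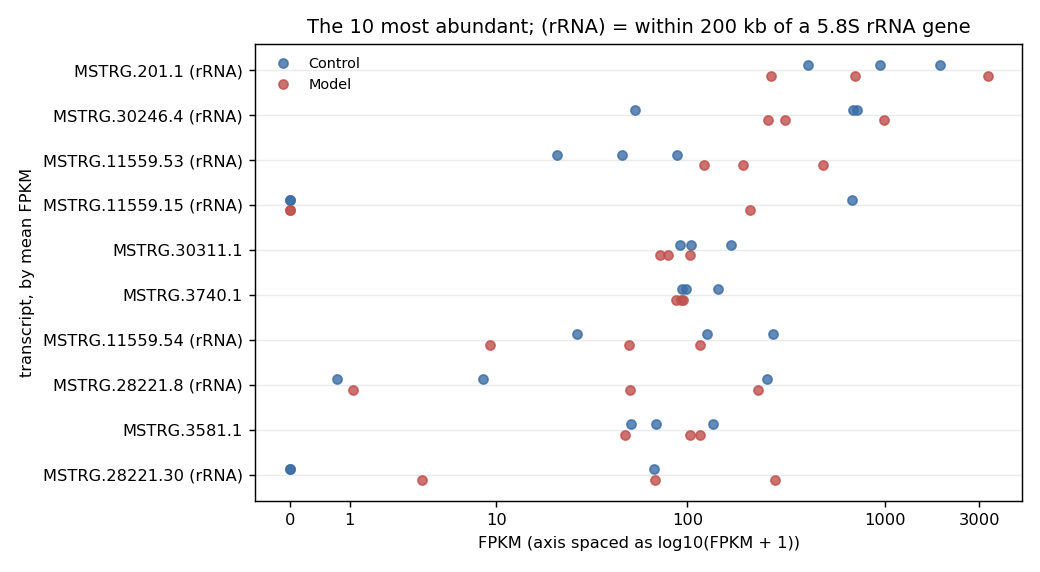
FPKM of the 10 most abundant spliced intergenic transcripts in each library (1 point per library, blue Control, red Model) on an axis spaced as log10(FPKM + 1). The 7 marked (rRNA) lie within 200 kb of a 5.8S rRNA gene and spread widely, MSTRG.201.1 from 266 to 3301, while MSTRG.3740.1 stays between 87.3 and 144.

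The same transcripts made up a part of the class total that differed widely between libraries. Summed FPKM was 7216, 8669 and 8883 in Control (8256 ± 907, SD, n = 3) and 6737, 10836 and 7257 in Model (8277 ± 2232), and the exact permutation test gave p = 0.90 (two-sided, where 3 against 3 libraries cannot go below 0.1). The transcripts near 5.8S rRNA genes held 15.02% of it in Model replicate 1 and 46.0% in Model replicate 2, the lowest and highest shares. Without them the sum was 5860, 5683 and 6362 in Control (5969 ± 352) and 5725, 5856 and 5312 in Model (5631 ± 284), with an exact permutation p of 0.40 and the direction turned. The class made up 1.26% to 2.05% of the FPKM of a whole library, 1.49 ± 0.21 percent in Control and 1.58 ± 0.42 in Model, a difference that did not exceed the spread (exact permutation p = 0.90, n = 3).

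**Figure D3:**
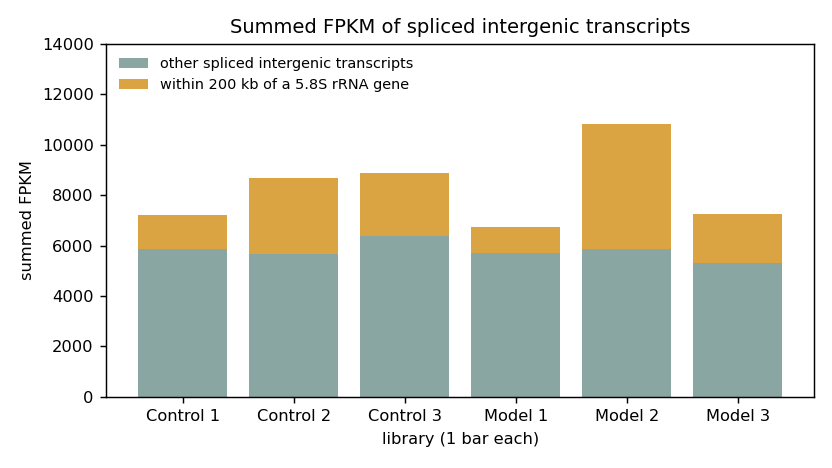
Summed FPKM of all spliced intergenic transcripts in each library (1 bar each), split into those within 200 kb of a 5.8S rRNA gene (yellow) and the rest (grey-green). The yellow part runs from 1012 to 4980, the grey-green part from 5312 to 6362.

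The number of spliced intergenic transcripts detected did not differ between groups beyond the spread. Above 0 FPKM there were 2260, 2270 and 2285 in Control and 2270, 2270 and 2255 in Model (exact permutation p = 0.60, n = 3 per group). At 1 FPKM or more there were 1721, 1724 and 1749 in Control and 1695, 1743 and 1556 in Model (exact permutation p = 0.30). Model replicate 3 lay apart from the other 5 at this limit, and the groups overlapped with and without it.

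Model was then compared with Control transcript by transcript, the question the study put to its transcript table. A transcript was tested where at least 3 of the 6 libraries were above 0, and a call needed an unadjusted limma p of at most 0.05 on log2(FPKM + 1) and a ratio of group means of at least 1 on the log2 scale, the thresholds of the study's methods. Of the 2565 transcripts 2340 were tested and 70 called, 26 higher and 44 lower in Model. That is 2.99% of those tested, where 2.98% of all 64867 transcripts tested were called (1.22% higher, 1.76% lower), so the share called was that of the table as a whole. With FPKM rescaled to the same total in every library (TPM) the split was 36 higher and 40 lower. Single-exon intergenic transcripts had 264 calls among 7768, or 3.40%.

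Groups that did not overlap were found for 253 of the 2340 (10.8%), against 10.4% of all tested. Without Model replicate 3 there were 478 (20.4%), against 20.1% of all. Smaller groups separate more readily whichever library is left out, so this rise is no result about that library. The median fold change on the log2(FPKM + 1) scale was -0.04, and -0.02 over all transcripts tested. Leaving out 1 library at a time gave 78 to 113 calls, the highest without Control replicate 1 (113) and without Model replicate 2 (107), and 81 without Model replicate 3 (37 higher and 44 lower). After Benjamini-Hochberg adjustment over all 64867, 3 of the spliced intergenic transcripts had a limma adjusted p below 0.05, against 18 (0.0277%) of all. At an unadjusted p of at most 0.05 there were 108, or 4.62%, against 4.53% of all.

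**Figure D4:**
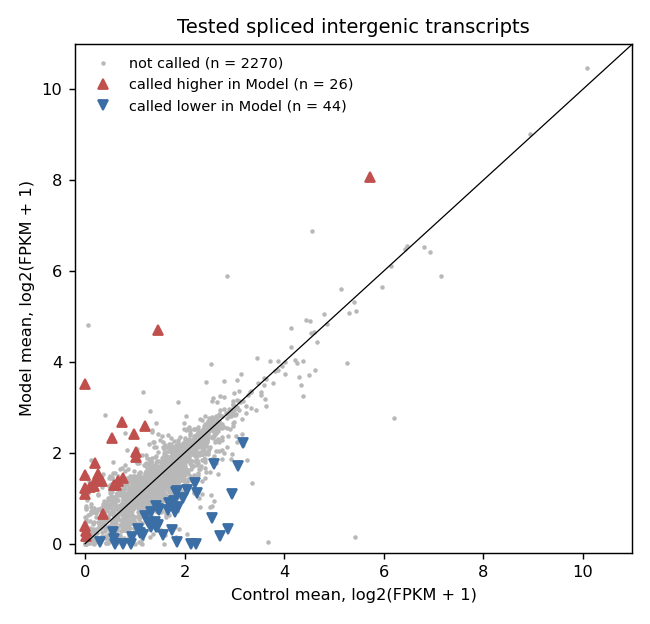
Mean log2(FPKM + 1) in Control (x axis) and Model (y axis) of the 2340 tested spliced intergenic transcripts, with the line of equal means. The 26 called higher (red, pointing up) and 44 called lower (blue, pointing down) lie mostly at low levels, and the other 2270 (grey) follow the line.

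The share called differed by shape and place, beside 2.98% of all tested, and no test of these differences was made. By exon number the calls were 54 of 1759 with 2 exons (3.07%), 9 of 436 with 3 or 4 (2.06%), 3 of 104 with 5 to 9 (2.88%) and 4 of 41 with 10 or more (9.76%). The last 4 came from 3 loci. Among transcripts farther than 100 kb from any annotated one, 11 of 478 were called (2.30%), 10 of them lower. Those with a mean intron under 100 bases had 8 calls among 293 (2.73%). Of the 27 tested near 5.8S rRNA genes 4 were called (14.8%), 3 of them higher, and this distance had been set after the values were seen.

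Many calls were of 1 isoform among several. Of the 70 called transcripts, 51 lay at loci with 2 or more assembled or annotated transcripts, as did 1158 of the 2340 tested (49.5%). In 31 of the 51 (60.8%) the summed rest of the locus differed between groups in the opposite direction. That share was 51.9% of the 1158 and 71.2% of all 1190 called transcripts at such loci in the whole table, so it was not higher here than in the table. When FPKM was summed over all transcripts of a locus, 7 of the 51 belonged to a locus that was itself called. Over all loci with a spliced intergenic transcript this sum was called at 39 of 1808 (2.16%), against 2.22% of all 40805 loci tested. At 4 loci 2 transcripts were called, and these are described next because of that.

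MSTRG.28247 lay at chr5:98936569-98937819, on the plus strand between Lurap1l and Mpdz, with a nearest annotated transcript 93195 bases away. MSTRG.28247.1 was listed at 0 in the 3 Control libraries and at 10.4, 10.2 and 10.5 FPKM in Model, a change of 3.51 ± 0.11 (SE) on the log2(FPKM + 1) scale with a limma adjusted p of 0.00378, the lowest of the class. MSTRG.28247.2, a model with the same start, an end 1 base apart and 23 more bases of exon, was at 0.970, 8.21 and 9.93 FPKM in Control and 0.272, 0.406 and 0.0980 in Model, and was called lower. The locus sum was 0.970, 8.91 and 9.93 in Control and 10.96, 10.7 and 10.6 in Model, higher in every Model library but with a limma adjusted p of 0.935. Control replicate 1 alone stood low for the locus.

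MSTRG.30024 is the locus of Rasgrp3, a guanine nucleotide exchange factor for Ras proteins. It held 2 spliced intergenic transcripts upstream of the annotated gene on its strand, between it and Ltbp1, the latent TGF-beta binding protein 1. Longer assembled isoforms of the locus also ran from this region into Rasgrp3, and MSTRG.30024.4 (19 exons) had the same 5′ end as MSTRG.30024.9. Whether the 2 are partial models of such isoforms was not tested. MSTRG.30024.9 was at 3.30, 2.92 and 3.94 FPKM in Control and listed at 0 in the 3 Model libraries (change of -2.13 ± 0.15 (SE), limma adjusted p = 0.0428). MSTRG.30024.8, whose 5′ end differs by 7 bases, was at 0.347, 2.44 and 0.315 in Control and 2.78, 2.87 and 3.52 in Model, and was called higher, a call that was lost when any library other than Control replicate 2 was left out. The sum over the 8 transcripts of the locus was 18.9 ± 1.23 in Control and 17.7 ± 2.05 in Model (SD, n = 3) and was not called.

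At MSTRG.12636, on chromosome 15 between Cadps and Ptgdrl, models of 21 and 19 exons also differed in opposite directions. MSTRG.12636.2 was at 1.49, 1.33 and 1.12 FPKM in Control and 3.08, 4.48 and 7.39 in Model, and MSTRG.12636.3 at 6.37, 6.93 and 7.05 in Control and 2.76, 0.170 and 0.444 in Model. Both were called, with limma adjusted p-values of 0.770 and 0.773. Their locus summed to 8.54 ± 0.25 FPKM in Control and 7.59 ± 0.82 in Model and was not called.

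At MSTRG.21864 both called transcripts were lower in Model. It lay on chromosome 20 between Tet1, a DNA demethylase, and Rwdd1. MSTRG.21864.3 was at 5.23, 4.90 and 6.43 FPKM in Control and 0.360, 0 and 0 in Model (limma adjusted p = 0.0504), and MSTRG.21864.2 at 2.97, 3.40 and 4.47 against 2.41, 1.54 and 0.661. The third, MSTRG.21864.1, was at 2.33, 3.38 and 3.36 against 2.36, 2.45 and 0.879 and was not called. The locus sum was 10.5, 11.7 and 14.3 FPKM in Control and 5.13, 3.99 and 1.54 in Model, a log2 ratio of -1.77, and was called lower with a limma adjusted p of 0.935.

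**Figure D5:**
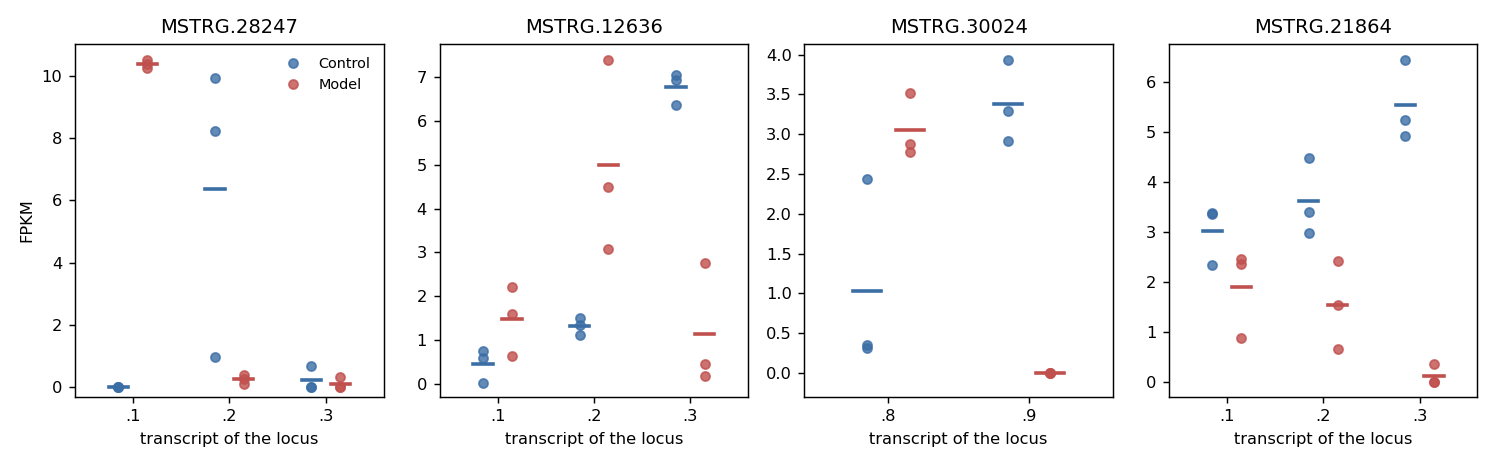
FPKM of the spliced intergenic transcripts of 4 loci in the 3 Control (blue) and 3 Model (red) libraries, 1 point per library with a bar at the group mean. In the first 3 panels 1 transcript is high in Model where its sister is high in Control (MSTRG.28247.1 and MSTRG.28247.2, MSTRG.12636.2 and MSTRG.12636.3, MSTRG.30024.8 and MSTRG.30024.9), while the 3 of MSTRG.21864 are all lower on average in Model.

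The third transcript with an adjusted p below 0.05 was MSTRG.14174.2, near Stox2 on chromosome 16. It was listed at 0 in Control and at 2.01, 1.84 and 1.70 FPKM in Model (change of 1.51 ± 0.11 (SE), limma adjusted p = 0.0428), and its single intron measured 20 bases. The other transcript of its locus moved the same way, and the locus sum was 0.693 ± 0.139 FPKM in Control and 3.71 ± 0.181 in Model. In all, 12 of the 2340 transcripts were listed at 0 in 1 group and above 0 in every library of the other (0.513%, against 0.344% of all tested), and 17 without Model replicate 3 (0.726%, against 0.618%). They were 6 in Control and 6 in Model, and 9 of the 12 lay at loci with other transcripts.

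Among the other transcripts called lower, MSTRG.36886.1 was the only transcript of its locus. It has 2 exons over 11627 bases on chromosome 9 between Col5a2, a fibrillar collagen gene, and Wdr75. It was at 7.47, 7.66 and 8.84 FPKM in Control and 3.24, 3.81 and 3.83 in Model, a change of -0.96 ± 0.11 (SE) with a limma adjusted p of 0.165. MSTRG.26312.5, in the neighbourhood of the metalloprotease gene Adamts9, was at 2.47, 2.03 and 3.27 against 0.0390, 0.00633 and 0.0105, while the other transcripts of its locus summed to 13.8 FPKM in Control and 14.9 in Model. MSTRG.8944.2, near Upk3bl1, was at 3.66, 3.06 and 2.74 against 1.24, 1.63 and 0.909. The groups of each were apart, and no adjusted p was below 0.05.

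Of the remaining lower calls, MSTRG.9510.6 was at 10.2, 4.33 and 7.74 FPKM in Control and 1.78, 3.35 and 1.73 in Model. MSTRG.27415.4, with 7 exons, was at 2.08, 1.98 and 3.25 against 0.713, 0.949 and 1.12. MSTRG.27261.1, in an interval between Jph1 and Tmem70 where RefSeq lists Ly96, a partner of Toll-like receptor 4, was at 3.26, 2.94 and 8.27 against 1.46, 0 and 0. For MSTRG.1394.4 the Control values were 2.37, 1.18 and 7.50 and Model was listed at 0. All had limma adjusted p-values of 0.945.

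Among the transcripts called higher, some had a wide Model group. MSTRG.36657.1, just downstream of Ccdc115 on its strand, was at 0.946, 0.255 and 0.149 FPKM in Control and 4.19, 5.88 and 1.99 in Model (limma adjusted p = 0.773). MSTRG.25464.2, a 27558-base transcript with an intron of 60 bases, was at 1.46, 1.05 and 0.420 against 2.12, 2.92 and 7.85. Its highest value came from Model replicate 3. MSTRG.12452.3 was tighter, at 0, 0.440 and 0 against 2.43, 2.41 and 2.40 (limma adjusted p = 0.176), but the rest of its locus moved the other way and the locus sum was 2.83 ± 0.51 in Control and 4.51 ± 0.18 in Model.

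MSTRG.11278.1 lay 7041 bases from Hopx, a homeodomain protein expressed in type 1 cells, and was transcribed away from it. It was at 0.0740, 0.0834 and 0.445 FPKM in Control and 0.901, 1.28 and 3.57 in Model (change of 1.19 ± 0.36 (SE), limma adjusted p = 0.945). The groups did not overlap, Model replicate 3 was the highest, and the call was lost without Control replicate 1 or Control replicate 2.

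A list of 33 names of lung regulators and matrix genes was used to look for neighbours, in which Ccn2 and Ctgf are names of the same gene. The table held 29 of the names, and 9 had a spliced intergenic transcript within 100 kb, 15 transcripts in all, of which 14 were tested and 2 called, against 2.98% of all transcripts tested. These were the Hopx neighbour and MSTRG.6156.1. The latter, 54445 bases from Tbx4, a mesenchymal regulator of lung growth, was at 0.538, 0.441 and 0.434 FPKM in Control and 0.315, 0.112 and 0.162 in Model. The lowest limma adjusted p of the 14 was 0.945.

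The most abundant of these neighbours was MSTRG.17991.1 (3 exons, 2235 bases, chr19:52985275-52991909), 20423 bases from Foxf1, a transcription factor of lung mesenchyme and endothelium. In the interval between Zdhhc7 and Foxf1, RefSeq lists 12 genes that no transcript analysed here named, 10 of them long non-coding RNAs. They include Fendrr, a long non-coding RNA known as a neighbour of Foxf1, and the protein-coding Cibar2. Whether MSTRG.17991.1 is one of these genes was not determined. MSTRG.17991.1 was at 21.5, 25.3 and 19.6 FPKM in Control and 24.9, 24.0 and 23.4 in Model, and the groups overlapped (limma adjusted p = 0.945). Foxa2, a regulator of airway and alveolar epithelium, had 6 such transcripts within 100 kb. The highest, MSTRG.24180.1, was at 3.45, 2.62 and 2.61 against 3.26, 3.39 and 3.57, and MSTRG.24181.1 at 3.37, 2.30 and 2.16 against 3.16, 2.99 and 3.24. Control replicate 1 lay within the Model range for the first and above it for the second.

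Near the matrix and TGF-beta signalling genes of this list no transcript was called. Ltbp1, whose neighbours MSTRG.30024.8 and MSTRG.30024.9 were called, was not on the list. MSTRG.37241.1, 5 exons between Atic and the fibronectin gene Fn1, was at 2.55, 2.80 and 3.32 FPKM in Control and 2.91, 2.57 and 2.95 in Model. MSTRG.34993.1, near the inhibitory Smad6, was at 1.19, 2.28 and 1.84 against 1.51, 1.30 and 0.445, and MSTRG.37830.1, within 100 kb of the protease inhibitor gene Timp1 and 305 bases head to head from Uxt, at 2.08, 1.72 and 1.78 against 1.58, 1.67 and 1.93. Control and Model overlapped in all 3. MSTRG.23840.1, 93508 bases from the fibrillin gene Fbn1, was at 0.582, 0.475 and 0.904 against 1.70, 0 and 0.652. MSTRG.30710.1, 490 bases from Nkx2-1, the master regulator of lung epithelium, was at most 0.410 FPKM in any library.

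The distance to annotated transcripts was wide. The gap to the nearest annotated transcript had a median of 26295 bases, 572 were within 5 kb and 525 farther than 100 kb. Of the 572, 210 were head to head with the neighbour, 133 tail to tail, 127 upstream on the same strand and 102 downstream on it. Their median mean levels were 1.53, 1.45, 1.89 and 1.76 FPKM in that order, and 1.48 for those farther than 100 kb. Of 197 tested transcripts whose 5′ end was within 5 kb of a divergent gene start, 4 were called (2.03%), all lower, against 2.98% of all tested and 1.76% called lower.

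Steady and unsteady head-to-head transcripts stood among the most abundant. MSTRG.714.1, 16558 bases long and 5 bases from Igf2r, the receptor for insulin-like growth factor 2 whose promoter is shown above, was at 10.1, 10.0 and 10.2 FPKM in Control and 10.6, 11.4 and 10.1 in Model, a coefficient of variation of 4.98%. MSTRG.31191.8 at Erg28 was at 5.54, 6.84 and 7.23 against 5.04, 3.97 and 5.27. Values spread widely within both groups for MSTRG.30808.2 at the Mgat2 promoter, a gene of N-glycan synthesis, at 0.438, 6.44 and 6.21 against 16.9, 15.6 and 0.0175. MSTRG.8233.1 at Klhl24 was at 12.1, 9.81 and 12.6 against 2.11, 10.4 and 9.16. In MSTRG.35781.1, next to Tcta, 2 Control libraries were listed at 0 and Control replicate 2 was at 14.3, with 16.6, 13.5 and 13.7 in Model. None of these 5 was called.

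Of the loci for which primers were printed above, MSTRG.11559 held 8 spliced intergenic transcripts that spread widely between libraries. MSTRG.11559.53 was at 46.1, 88.8 and 21.1 FPKM in Control and 121, 489 and 192 in Model, did not overlap between groups and was called higher (change of 2.32 ± 0.70 (SE), limma adjusted p = 0.945). The sum over all 68 transcripts of the locus was 5877 ± 1438 FPKM in Control and 7974 ± 2326 in Model (SD, n = 3) and was not called. Others of the locus went the other way or were seen in 1 library. MSTRG.11559.54 was at 27.1, 127 and 272 against 9.16, 50.03 and 115, MSTRG.11559.38 at 19.6, 29.9 and 21.8 against 13.6, 6.95 and 18.8, and MSTRG.11559.11 at 91.2 in Control replicate 1 and listed at 0 elsewhere.

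MSTRG.11560.41, 802 bases from a 5.8S rRNA gene, was at 2.38, 1.88 and 1.01 FPKM in Control and 7.32, 56.0 and 11.7 in Model (change of 2.76 ± 0.73 (SE), limma adjusted p = 0.945) and was called higher. Model replicate 2, the library with the largest share of FPKM near 5.8S rRNA genes, was its highest as it was for MSTRG.11559.53. The sum over all 41 transcripts of the locus MSTRG.11560 was 2470 ± 971 FPKM in Control and 3844 ± 1453 in Model (SD, n = 3) and was not called. MSTRG.30244.6, the spliced intergenic transcript of the third locus, was at 0, 0.112 and 0 in Control and 0, 6.48 and 75.2 in Model and was not called.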

How the data were processed

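Whole transcriptome libraries of 3 Control and 3 Model rat lungs were analysed, grouped by the sample labels. Per the study's methods, the authors removed ribosomal RNA. Those methods do not state whether the libraries were stranded, and 6424 of the 7905 single-exon intergenic transcripts had no strand. The study's methods name Bowtie2 and TopHat2 as aligners, while the submitters' processing notes list HISAT2 and TopHat, and which of them made this table is not settled by these sources. Transcripts were assembled with StringTie and FPKM given with Ballgown. Tool versions and the genome build are not given in the sources used here. The deposited FPKM values are normalized for length and library size and were used as they stand, and the deposited coverage signal per base was used for an alternative and for depth. Length and exon number are other deposited columns. A table of circular RNAs was not used.

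Levels were tested with limma 3.58.1 (R 4.3.3) with a variance trend on log2(FPKM + 1), over all transcripts above 0 in at least 3 of 6 libraries, with Benjamini-Hochberg adjustment over all of them. Fold changes on this scale understate those of low transcripts. Library values were compared with exact permutation tests, two-sided (scipy 1.17.1). On simulated data for this comparison, 96.5% of 200 transcripts among 64867 changed by 2 on the log2 scale were called and 63% passed adjustment, while 2224 unchanged ones were called and 13 passed adjustment. Named transcripts were the 10 most abundant, all with an adjusted p below 0.05, the 10 smallest p in each direction among calls with a mean of 1 FPKM or more, those at loci named by the study, the longest, those with the most exons or isoforms, and the 10 most abundant near listed genes and in head-to-head pairs. Others, such as sister isoforms and transcripts with many exons, were picked once their values had been seen. The place of 1 of the 10 most abundant is not reported here. Members and lists were chosen with earlier results of these data known. Alternatives covered pseudocount, filter, scaling, coverage, locus sums, a replicate block and each library left out. Overlapping isoforms of a locus share reads, so their split is an estimate of StringTie.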

Additional observations from a re-analysis of the deposited data

How the results depend on the processing

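The count of 70 called spliced intergenic transcripts stayed between 68 and 78 with a pseudocount of 0.1, no filter, rescaling to TPM, median-ratio scaling, assembled transcripts alone, no variance trend, coverage in place of FPKM and the replicate block. It was 43 with a filter of mean FPKM of at least 1, which tested 1866, and 36 when FPKM was summed over the members of a locus. Summed over all transcripts of a locus, an alternative added after seeing the data, it was 39. Leaving out 1 library gave 78 to 113. The replicate block gave 78 calls, of which 52 were also called without it, and 0 adjusted p-values below 0.05 by limma, with 111 at an unadjusted p of at most 0.05. The same replicate number did not go with shared deviations (r = 0.01, 0.05 and -0.04 for the 3 pairs), so the numbers were not taken as pairs. The 0.00378 of MSTRG.28247.1 became at most 0.406 over 12 alternatives and stayed below 0.05 in 11. MSTRG.30024.9 stayed below 0.05 in 6 of 12 and MSTRG.14174.2 in 5 of 11, each reaching 0.939. Of 302 alternative values of the 21 named called transcripts, 292 were still called in the same direction, 10 were not and 0 reversed. MSTRG.25464.2, MSTRG.30024.8 and MSTRG.11278.1 were those that lost a call.

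The summed FPKM difference of 20.4 (Model minus Control) changed sign without the 10 most abundant members (-371) and, added after seeing the data, without those near 5.8S rRNA genes (-337), and ranged from -1259 to 790 with a library left out, turning without Control replicate 1 or Model replicate 2. With the replicate block its exact permutation p was 1.0, where 3 pairs cannot go below 0.25. The difference in share of 0.0894 percentage points was -0.00337 without the members near 5.8S rRNA genes, and -0.146 to 0.247 with a library left out. The detected number differed by -12.5 to 0 with a library left out. The median difference between spliced and single-exon transcripts was 0.0828 to 0.0983 with a library left out, where 5 libraries cannot go below an exact permutation p of 0.0625, and 0.0165 (exact permutation p = 0.156) at 1000 to 3000 bases. Read numbers per library were not used here, and depth as coverage limits what can be said of transcripts listed at 0.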
